A study of Mus musculus with 42 samples.

Results

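Kidney transcripts of mice fed AZD8055 were compared directly with those of mice fed KU0063794, both of them small-molecule inhibitors of the mTOR kinase. The members were the kidney libraries of the 2 compounds, AZD8055 replicates 1 to 3 and KU0063794 replicates 1 to 4, which makes 7 of the 42 libraries in the series. AZD8055 replicate 4 was left out because transcripts of fat cells dominate it, so the members were selected on measured levels of fat-cell genes. Those genes are given below as levels, with no test of the compounds. All mice were males of UM-HET3, a genetically mixed stock, and ate Purina 5LG6 chow, plain for the 6 controls or with a compound, for 1 month from the age of 3 months. Tissue was taken at 4 months. AZD8055 was given at 20 ppm and KU0063794 at 10 ppm, and neither was given at a second dose, so compound and dose cannot be told apart in any difference below. The 2 compounds make 1 pair, and it is the only comparison tested.

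The kinase mTOR sits in the cell in a pair of complexes, mTORC1, built around Raptor, and mTORC2, built around Rictor. The first senses amino acids, energy and growth factors and drives translation, ribosome production and lipid and nucleotide synthesis while holding back autophagy, and the second acts on AKT and SGK kinases, the latter a regulator of sodium transport in the renal tubule. Inhibitors that compete with ATP at the kinase, the class to which both compounds belong, act on both complexes, and much of that action is on protein phosphorylation, which transcript counts do not measure.

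Kidney identity was checked first. In the 7 libraries Umod, which encodes the urinary protein uromodulin, ranged from 609 to 1788 CPM (counts scaled to library size, with TMM factors), and Slc34a1, a phosphate transporter of the proximal tubule, from 5841 to 8064 CPM. Alb, the liver's albumin, ranged from 0.422 to 11.4 CPM. Total counts per library ran from 1553748 to 2447730 in AZD8055, from 894034 to 5691067 in KU0063794 and from 863605 to 2559118 in the controls. Libraries also differed in the share of counts on gene models made of satellite repeat, which was 5.66%, 6.33% and 0.0711% in AZD8055 replicates 1 to 3 and 8.02%, 0.1998%, 0.0689% and 0.0575% in KU0063794 replicates 1 to 4. The libraries with a high share, AZD8055 replicates 1 and 2 and KU0063794 replicate 1, stood apart from the other 4 on the first principal component, which held 30.0% of the variance among the 29 kidney libraries. The total, the number of genes detected, the satellite share and the mitochondrial share were each compared between the groups by a two-sided exact permutation test, with raw p-values of 0.571, 0.514, 0.629 and 0.171. Adjusted over these 4 measures each p was 0.629, and the smallest raw p that 3 against 4 libraries allow is 0.0286. All AZD8055 libraries and KU0063794 replicate 1 stand in the earlier part of the deposited table's kidney columns and KU0063794 replicates 2 to 4 in the later part; the labels do not say what that order stands for, and its part in the results was not tested beyond a fit with that position as a covariate, which also called 0 genes.

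No gene was called different between the 2 inhibitors. Of 12227 genes tested by edgeR's quasi-likelihood test with Benjamini-Hochberg adjustment, 0 passed an adjusted p of 0.05, which is 0% in either direction. At an unadjusted p under 0.05 there were 422 genes (3.45%), of which 216 (1.77%) were higher in AZD8055 and 206 (1.68%) lower. DESeq2 called 1 gene, with 369 at an unadjusted p under 0.05, and limma voom with sample weights called 0, with 812. The groups of 3 and 4 libraries did not overlap for 710 genes (5.81%): AZD8055 lay wholly above KU0063794 for 352 (2.88%) and wholly below for 358 (2.93%). These percentages are the background against which the counts for gene groups below are set.

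A gene that misses the threshold is not thereby shown to be alike under both inhibitors, so the width of each estimate was measured as well. For 7475 genes (61.1%) the 95% interval of the log2 difference lay within 2-fold in both directions, that is, between -1 and 1. This share depended on the level of the gene. The interval lay within 2-fold for 36 of 2723 genes (1.32%) with a mean under 5 CPM, for 2079 of 3809 (54.6%) between 5 and 20 CPM, for 3793 of 4049 (93.7%) between 20 and 100 CPM and for 1567 of 1646 (95.2%) above 100 CPM. The median standard error of a log2 difference was 0.293 over all genes, and the median absolute difference was 0.191, smaller than that error.

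Over all pairs, libraries given different inhibitors were about as unlike as libraries given the same one. The distances also went with the satellite share and with the total counts. Over 5695 genes with a mean of at least 20 CPM, the median absolute log2 difference between an AZD8055 and a KU0063794 library ran from 0.189 to 0.319 across the 12 pairs, with a median of 0.223. Between AZD8055 libraries it ran from 0.226 to 0.230 in 3 pairs (median 0.226), and between KU0063794 libraries from 0.166 to 0.298 in 6 pairs (median 0.232). Pairs with KU0063794 replicate 1, which has the lowest total and the highest satellite share of the 7, ran from 0.249 to 0.319. Without replicate 1, pairs with KU0063794 replicate 4, the library with the highest total, ran from 0.166 to 0.202. The part of depth or satellite share was not tested. The pairs share libraries and are not independent, so these distances are a description with no test.

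**Figure D1:**
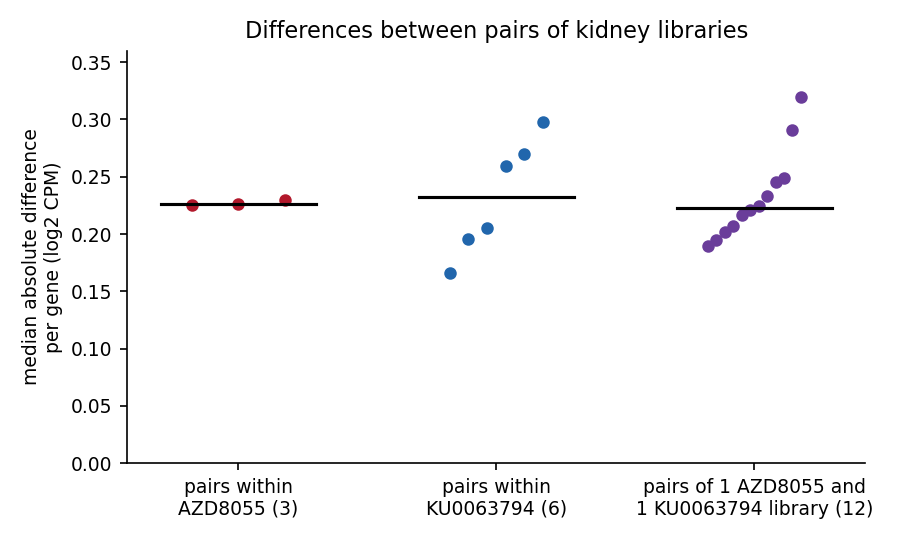
Median absolute difference per gene in log2 CPM (vertical axis) for each pair of kidney libraries, over 5695 genes with a mean of at least 20 CPM; each point is 1 pair, bars are medians and horizontal scatter only separates points. The 12 pairs of 1 AZD8055 and 1 KU0063794 library span 0.189 to 0.319, a range that takes in all 3 pairs within AZD8055.

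**Figure D2:**
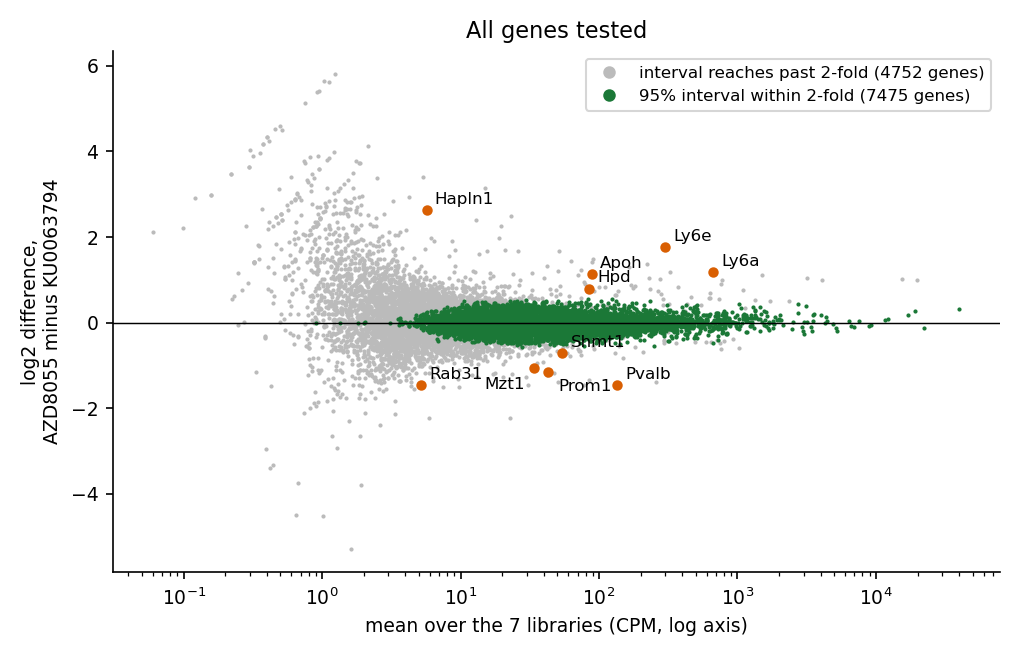
Log2 difference, AZD8055 minus KU0063794, against the mean level over the 7 libraries in CPM (log axis); each point is 1 of 12227 genes, green where its 95% interval lies within 2-fold both ways. Orange points are 10 of the genes with the smallest p among those whose groups do not overlap, and none passed the threshold.

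The gene nearest to the threshold was Ly6a, which encodes Sca-1, a surface protein of the Ly6 family anchored to the membrane by a lipid and known as a marker of stem and endothelial cells. Ly6a (ENSMUSG00000075602, GRCm38 chr15:74994877-74998031, minus strand) stood at 1129, 681 and 1100 CPM under AZD8055 and at 485, 516, 288 and 430 CPM under KU0063794, against 338 to 751 CPM in the controls. Every AZD8055 library lay above every KU0063794 library, while the control range spanned libraries of both. The group means were 970.0 ± 251 (SD, n = 3) and 430 ± 101 CPM (SD, n = 4), a log2 difference of 1.18 with a 95% interval of 0.69 to 1.67. Its adjusted p was 0.407 in edgeR, and it was the 1 gene that DESeq2 called, at an adjusted p of 0.0113; edgeR without the low-count filter gave 3.53e-06, in a fit that gives genes almost no spread of their own (717000 total degrees of freedom, 29.4 in the fit with the filter). Over the other alternatives, all by edgeR or limma, its adjusted p ran from 0.0779 to 1.00. AZD8055 replicate 4, left out of the comparison, held 195 CPM, below all 7 libraries. Ly6e, a relative of Ly6a, lies at chr15:74955051-74959905, with 34972 bases between the genes, and was measured at 504, 363 and 645 CPM under AZD8055 and 165, 295, 72.0 and 67.4 CPM under KU0063794. Its groups did not overlap either, and the log2 difference was 1.76 with an interval of 0.79 to 2.74. Ly6 genes have close copies in the same cluster, and how reads were divided among them is not given in the sources used here.

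Next by p among genes higher in all AZD8055 libraries came Apoh, Hapln1, Ldhd and Defb29. Apoh (chr11:108343354-108414396), the plasma protein apolipoprotein H, stood at 116, 166 and 107 CPM under AZD8055 and at 38.6, 68.9, 72.3 and 51.3 CPM under KU0063794, with controls between 29.6 and 57.2 CPM. All 3 AZD8055 libraries were above every control as well. The log2 difference was 1.14 (interval 0.58 to 1.71), with an adjusted p of 1.00 in edgeR, as for every gene named from here on in this comparison. Hpd, the hydroxyphenylpyruvate dioxygenase of tyrosine breakdown (chr5:123171807-123182727), read 139, 102 and 97.3 CPM under AZD8055 and 54.6, 61.4, 56.0 and 84.8 CPM under KU0063794. Both groups lay above the control range of 29.7 to 46.0 CPM, and the difference between them was 0.79 on the log2 scale (0.32 to 1.26). Ldhd, the mitochondrial D-lactate dehydrogenase, had log2 difference 0.75, Defb29, a beta-defensin, 0.89, and Mtfr1, a regulator of mitochondrial shape, 0.65. Hapln1, a link protein of the hyaluronan matrix, was counted at only 22, 13 and 24 reads under AZD8055 and 2, 1, 6 and 12 reads under KU0063794, so its difference of 2.63 rests on few counts. Selenbp2 and Rpl3 complete the 10, at 1.68 and 3.40, but Selenbp2 has a near-identical neighbour and Rpl3 many processed copies, so their counts are uncertain.

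Genes lower in all AZD8055 libraries were led by Mzt1, a small protein that recruits gamma-tubulin ring complexes. Mzt1 (chr14:99034544-99046134) was 18.6, 30.3 and 14.7 CPM under AZD8055 and 44.3, 42.3, 44.5 and 43.7 CPM under KU0063794, with controls from 25.9 to 45.1 CPM. The KU0063794 libraries were within a narrow band at the top of the control range, and the log2 difference was -1.06 (-1.57 to -0.56). Shmt1, the cytosolic serine hydroxymethyltransferase of folate metabolism, was 37.6, 44.7 and 37.3 CPM under AZD8055 and 68.2, 60.0, 70.0 and 62.0 CPM under KU0063794. Its controls, at 41.1 to 61.4 CPM, lay between the groups with some overlap with each, and the difference was -0.71 (-1.12 to -0.29). Pvalb, parvalbumin, a calcium-binding protein that in kidney marks the early distal convoluted tubule, was 46.9, 107 and 51.4 CPM against 155, 133, 241 and 213 CPM, a difference of -1.47 (-2.44 to -0.49), while its controls ran from 57.6 to 235 CPM. The rest of the 10 were Rab31 (-1.46), Prom1 (-1.15), Gnpda1 (-0.97), Evc (-0.77), Srd5a3 (-0.76), Ttc32 (-0.75) and Abat (-0.42). Rab31, a small GTPase of vesicle traffic, was counted at 3 to 29 reads per library. Prom1 encodes prominin, a protein of membrane protrusions, and Abat breaks down the transmitter GABA.

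**Figure D3:**
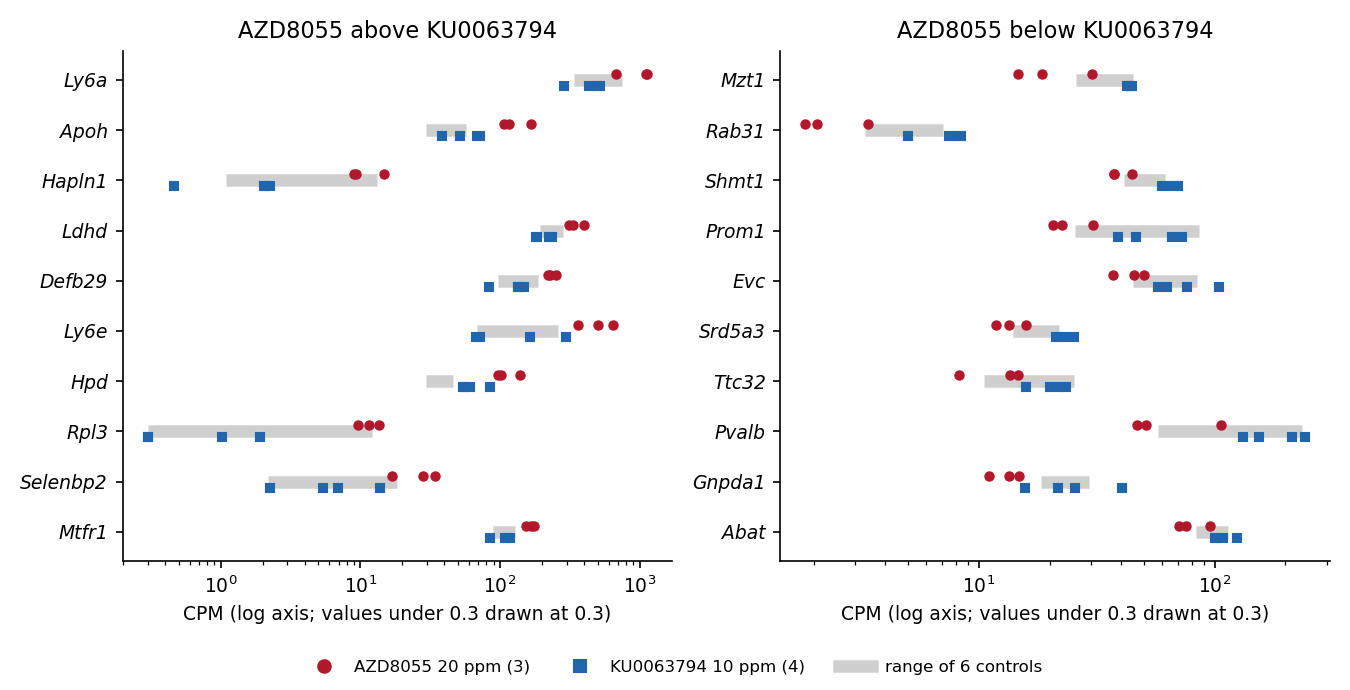
Levels in CPM (log axis) of the 10 genes with the smallest p in each direction among those with non-overlapping groups and a mean of at least 5 CPM; red circles are the 3 AZD8055 libraries, blue squares the 4 KU0063794 libraries and grey bars the range of the 6 controls. The groups do not overlap by choice of the genes; for Apoh, Ldhd, Defb29, Ly6e, Hpd and Mtfr1 every AZD8055 library also lies above the controls, for Gnpda1 every one lies below them, and for every gene but Hpd the control range reaches into at least 1 group.

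Of the 11 subunit genes of the mTOR complexes, 8 were bounded within 2-fold between the inhibitors. Mtor was measured at 87.9, 77.0 and 85.1 CPM under AZD8055 and at 70.5, 96.3, 70.3 and 63.1 CPM under KU0063794. The groups overlapped, and the log2 difference of 0.16 had an interval of -0.29 to 0.60, within 2-fold. Rptor, for Raptor, differed by -0.09 and Rictor by -0.06, with overlapping groups. Deptor, an inhibitory subunit of both complexes, was 1 of 2 subunit genes whose groups did not overlap, at 94.6, 91.5 and 69.8 CPM against 103, 105, 115 and 130 CPM. Every AZD8055 library lay below every KU0063794 library, and the difference was -0.42 (-0.75 to -0.08). In AZD8055 replicate 4 Deptor was at 524 CPM, and with that library included the difference turned to 0.79. All 11 subunit genes in the list passed the low-count filter, 0 were called and the median difference was -0.06, beside 0.01 over all genes tested. The other gene lower in all AZD8055 libraries was Prr5l, an mTORC2 partner at 9.29, 6.19 and 6.12 CPM against 25.0, 12.1, 13.9 and 10.54 CPM, a difference of -0.97 (-1.86 to -0.07) that reaches past 2-fold. These 2 of 11 make 18.2%, where the background for this direction is 2.93%.

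Upstream of mTORC1, 36 regulators were listed, 35 were in the table and 34 passed the filter, from the TSC and GATOR complexes to the Rag GTPases and sestrins. None was called, 23 had an interval within 2-fold and the median difference was -0.11. Tsc2, a subunit of the complex that restrains mTORC1, differed by -0.11, with groups of 24.8 to 43.5 and 33.3 to 46.5 CPM. Fnip1 and Fnip2, the partners of folliculin in amino acid signalling to Rag GTPases, were lower in all AZD8055 libraries, at 94.6 to 97.9 against 107 to 134 CPM for Fnip1 and 31.8 to 38.9 against 39.0 to 56.8 CPM for Fnip2. Seh1l, a nucleoporin that also serves GATOR, showed the same order, at 58.3 to 65.5 against 73.1 to 85.2 CPM. Their differences were -0.32, -0.40 and -0.34, each with an interval within 2-fold, and 3 of 34 genes is 8.82% where the background for this direction is 2.93%. Lamtor3, a subunit of the Ragulator scaffold, took values near 2 or near 40 CPM in both groups (32.1, 2.06 and 2.45, then 39.8, 39.1, 47.2 and 1.73 CPM), and the controls, at 1.18 to 42.6 CPM, spanned the same range. Ddit4, the stress-induced REDD1 that acts through TSC, was low, at 2.27 to 8.15 CPM, and its interval reached from -1.06 to 1.24.

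In the list of mTOR substrates and the translation machinery they control, 22 of 25 genes passed the filter, 0 were called and 18 had an interval within 2-fold, with a median of -0.03. The 22 include Tifa (-0.16, -1.46 to 1.13), which belongs to neither kind. For 1 of the 22, Eif4b, an activator of the eIF4A helicase, the AZD8055 libraries (80.8 to 87.4 CPM) lay wholly below those of KU0063794 (87.8 to 93.2 CPM), at a difference of -0.09. Eif4ebp1, the translation repressor that mTORC1 phosphorylates, was 9.29, 15.1 and 7.96 CPM under AZD8055 and 7.96, 6.05, 12.2 and 8.99 CPM under KU0063794. The groups overlapped, with a difference of 0.24. Its relative Eif4ebp2 differed by 0.12 and Rps6kb1, an S6 kinase, by 0.18. Rps6, the ribosomal protein that S6 kinase phosphorylates, was at or below 1.14 CPM in all 7 libraries and could not be tested. Ribosomal protein genes have many processed copies, so this level is uncertain. Grb10, an adaptor that mTORC1 stabilises to dampen insulin signalling, differed by -0.08 (-0.56 to 0.39), and Irs2, the insulin receptor substrate, by -0.15. Sgk1, the mTORC2-dependent kinase of sodium handling, ranged from 28.3 to 56.9 CPM under AZD8055 and from 17.3 to 40.6 CPM under KU0063794. Those ranges overlap, and its difference of 0.55 has an interval of -0.30 to 1.40, which reaches past 2-fold.

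**Figure D4:**
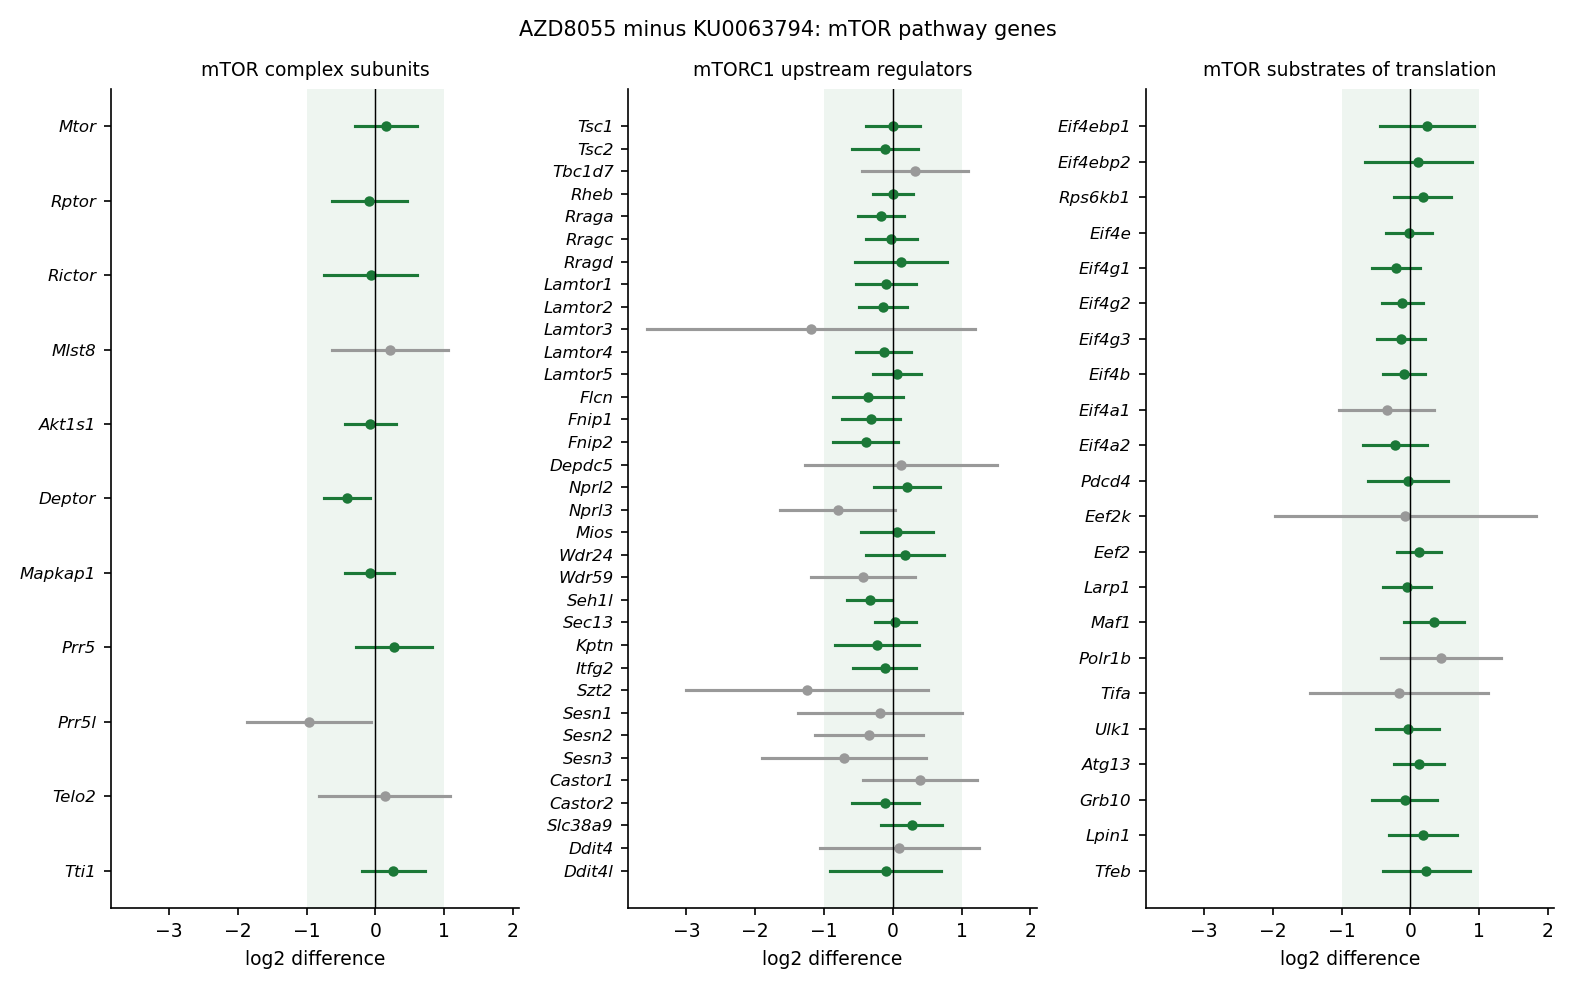
Log2 differences, AZD8055 minus KU0063794 (horizontal axis), with 95% intervals for the tested genes of 3 lists; the shaded band spans 2-fold each way, and green marks genes whose interval lies within it. Of 67 genes, 49 are green and 0 passed the threshold. The list of substrates also holds Tifa, which is not an mTOR substrate.

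The processes that mTORC1 drives gave medians near 0. Cytosolic ribosomal protein genes had a median of -0.05, with 65 of 82 passing the filter and 42 intervals within 2-fold. Of the 65, 4 (6.15%, background 2.88%) were wholly above in AZD8055, namely Rpl3, Rpl10a, Rps15a and Rps18, and 0 wholly below. Such genes have many processed copies, so their counts are uncertain. Rps15a was 44.0 to 50.8 against 33.0 to 42.0 CPM. Rpl10a was 1.84 to 3.38 against 1.14 to 1.70 CPM and Rpl3 9.63 to 13.5 against 0 to 1.90 CPM. Rps18 was 8.03, 8.94 and 55.7 against 2.33 to 6.45 CPM. Ribosome biogenesis genes had a median of 0.01 and the other transcripts with 5' terminal oligopyrimidine tracts -0.02. Sterol synthesis genes had a median of 0.06. Psat1, of serine synthesis, overlapped between groups at a difference of -0.15, and genes of the ATF4 amino acid response had a median of 0.04, though only 20 of 31 passed the filter; Asns, asparagine synthetase, did not, at 0.688 to 1.84 CPM in the 7 libraries.

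Autophagy genes, whose process mTORC1 holds back, were among the most closely bounded. Of 30 autophagy genes tested, 28 (93.3%) had an interval within 2-fold, against 61.1% of all genes. That share depends on level, and over all genes it was 93.7% between 20 and 100 CPM and 95.2% above 100 CPM. Levels were not matched here, so the 93.3% cannot be told apart from an effect of level. Of the 30 genes, 3 (10.0%, background 2.88%) were wholly above in AZD8055. One was Map1lc3a, an LC3 protein that is lipidated on autophagosomes, at 177, 171 and 175 CPM under AZD8055 and 141, 130, 132 and 141 CPM under KU0063794. The groups were tight and apart, and the controls, at 99.96 to 165 CPM, spanned the KU0063794 libraries; the log2 difference was 0.36 (0.06 to 0.66). The others were Atg14, a subunit of the autophagy lipid kinase, and Mitf, a transcription factor. Sqstm1, the cargo receptor p62, overlapped between groups at a difference of 0.06 (-0.23 to 0.35). Of 35 lysosome genes 4 (11.4%, background 2.93%) were wholly below in AZD8055, namely Lamp2, a membrane protein, and the hydrolases Lipa, Lgmn and Tpp1. In the same list 1 gene (2.86%, background 2.88%) was wholly above, the glucuronidase Gusb, described with the androgen-responsive genes. Tpp1 was 289 to 353 CPM against 376 to 425 CPM (-0.33, -0.64 to -0.03), and the median of the list was -0.07.

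Nuclear genes of mitochondrial function and proteasome genes had the largest shares of intervals within 2-fold among the pathway lists. The interval lay within 2-fold for all 25 tricarboxylic acid cycle genes and all 32 proteasome genes. It did so for 70 of 73 nuclear genes of oxidative phosphorylation and 66 of 69 mitochondrial ribosome genes. The medians of these 4 lists ran from 0.00 to 0.06. Levels were not matched, and over all genes the share was 93.7% between 20 and 100 CPM and 95.2% above 100 CPM. Among mitochondrially encoded genes it was lower, at 7 of 12 (58.3%). The mitochondrially encoded mt-Rnr2, the large ribosomal RNA, varied more, at 27313, 18421 and 19514 CPM under AZD8055 and 18968, 8008, 8547 and 7717 CPM under KU0063794. KU0063794 replicate 1, which also has a high satellite share, lay among the AZD8055 libraries, and the controls spanned 9434 to 32247 CPM. The difference was 1.01 (0.15 to 1.87), and mt-Rnr2 was called, at an adjusted p of 0.00514, in an edgeR fit of the 2 groups alone without KU0063794 replicate 1.

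Some groups of genes with kidney functions held more non-overlapping members than the background share. The groups and genes described from here to Cyp24a1 were picked after their values were seen, and 0 members were called. Of 33 genes of fatty acid oxidation, which the receptor PPAR alpha controls, 6 (18.2%, background 2.88%) were wholly above in AZD8055, among them Acadm, Cpt2, Ehhadh, Eci1 and Eci2. Acadm, a medium-chain acyl-CoA dehydrogenase, was 361 to 404 CPM against 202 to 329 CPM, and Ehhadh, an enzyme of peroxisomal beta-oxidation, 107 to 145 against 64.8 to 103 CPM. Their differences were 0.43 (-0.15 to 1.01) and 0.51 (0.04 to 0.98), and the median of the list was 0.12. Of 23 androgen-responsive kidney genes 4 (17.4%, background 2.88%) were wholly above, namely Cyp2d9, Cyp2e1, Gusb and Slco1a1, with a list median of 0.25. They include Gusb, the lysosomal beta-glucuronidase, at 190, 248 and 311 CPM against 81.8, 179, 72.7 and 70.7 CPM, a difference of 1.30 (0.33 to 2.28), and Slco1a1, an organic anion transporter, at 689 to 845 against 455 to 591 CPM. Gusb is also counted in the lysosome list and Cyp2e1 in the hepatocyte list. The androgen-responsive list held 1 gene (4.35%, background 2.93%) wholly below. It was Prlr, the prolactin receptor, at 2.06 to 3.80 against 4.65 to 14.8 CPM. Controls reached both groups' levels for Gusb and Slco1a1, at 80.3 to 265 and 434 to 908 CPM.

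Of 44 genes in a list of SR, hnRNP and other RNA-binding proteins, 6 (13.6%, background 2.93%) were wholly below in AZD8055 and 0 wholly above. The list median was -0.14. The 6 include the RNA helicase Ddx17, which belongs to neither family. Hnrnpk, an abundant hnRNP, was 293 to 331 CPM under AZD8055 and 338 to 372 CPM under KU0063794, a difference of -0.17, and Cirbp, the cold-inducible RNA-binding protein, 20.3 to 30.0 against 33.3 to 46.1 CPM (-0.56, -1.04 to -0.08). The nuclear noncoding RNA Neat1, the scaffold of paraspeckles, was 142, 158 and 129 CPM under AZD8055 and 165, 170, 282 and 221 CPM under KU0063794. Both groups lay largely below the controls, at 204 to 1393 CPM, and the difference of -0.56 between them (-1.59 to 0.46) was -0.09 with the column position as a covariate. Cpsf6 and Khdc4, a cleavage factor subunit and a splicing factor, differed by -0.03 and -0.14, with intervals within 2-fold. Hsd11b1, which activates glucocorticoid, was 330, 402 and 293 CPM under AZD8055 and 144, 131, 148 and 102 CPM under KU0063794. Its groups were well apart, but the controls ran from 79.5 to 304 CPM. The difference was 1.38 (0.39 to 2.37), not called in the fit of all kidney groups and called, at an adjusted p of 0.00711, by edgeR in a fit of the 2 groups alone. Cyp24a1, which inactivates vitamin D, was 76.9, 28.2 and 23.3 against 230, 103, 83.9 and 49.3 CPM, with overlap and a difference of -1.34.

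Of 55 pathway and cell type lists with at least 5 tested genes, 47 had a median within 0.2 of 0 on the log2 scale, and the range was -0.78 to 0.51. The lowest was the list of T, B and NK cells, with 6 tested genes, and the highest that of erythroid cells, with 7 of 7 above 0. Also past 0.2 were nuclear noncoding RNAs (-0.35), smooth muscle (0.32), hepatocyte (0.30), podocyte (-0.28), thin limb (0.26) and androgen-responsive genes (0.25). In bulk tissue, fewer cells of a type and less RNA per cell cannot be told apart. Proximal tubule genes had a median of 0.06 over 22 genes. Of these, 2 (9.09%, background 2.88%) were wholly above in AZD8055, Pck1 and Slc7a13. Another 2 (9.09%, background 2.93%) were wholly below, Hnf4a and Slc22a8. Slc7a13, an amino acid transporter of the late proximal tubule, was 770.0 to 976 against 434 to 704 CPM. Slc22a8, the organic anion transporter OAT3, was 721 to 845 against 1147 to 1312 CPM. Slc12a3, the thiazide-sensitive sodium chloride cotransporter of the distal convoluted tubule, overlapped at -0.31, beside Pvalb in the same segment at -1.47. The summed level of the endothelial list was 838 to 980 CPM under AZD8055 and 744 to 931 CPM under KU0063794, and that of the macrophage list 454 to 596 and 464 to 794 CPM. For the hepatocyte list, to which Apoh belongs, the sum was 3705 to 4313 CPM under AZD8055 and 2671 to 3719 CPM under KU0063794. Most of it was Cyp2e1, a cytochrome that kidney also makes (2862 to 3619 and 2070 to 2710 CPM), while the defining marker Alb was 0.422, 1.38 and 6.12 CPM under AZD8055 and 11.4, 4.19, 4.42 and 5.36 CPM under KU0063794. The median difference of the 15 tested members was 0.30, and 3 (20%, background 2.88%) were wholly above in AZD8055, namely Apoh, Cyp2e1 and Fgb, a fibrinogen chain at 2.45 to 2.75 against 0 to 2.27 CPM, with 0 wholly below. The part of hepatocyte transcripts in the Apoh difference was not tested.

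Including AZD8055 replicate 4 brought calls in 1 direction only. With it, 74 of 11719 genes (0.631%) were called higher in AZD8055 and 0 lower. In all 74, replicate 4 lay above the other 7 libraries, and 0 of the 74 were called without it. Of the 74, 10 are in the fat-cell list, whose levels were the reason for leaving that library out. These calls are a description of that library and no test of the compounds. Their median log2 difference was 3.94 with replicate 4 and 0.22 without. Ucp1, the uncoupling protein of brown fat, was 7.18, 8.94 and 3.67 CPM in AZD8055 replicates 1 to 3, 2.27 to 4.19 CPM in KU0063794 and 4140 CPM in replicate 4. Fabp4, the fatty acid carrier of adipocytes, was 58.8 to 106, 59.1 to 71.9 and 17334 CPM in the same order. In AZD8055 replicates 1 to 3 the fat-cell list summed to 1198 to 2018 CPM and in KU0063794 to 909 to 2005 CPM, against 81377 CPM in replicate 4. Eif4ebp1 was at 232 CPM in replicate 4 and was called with it (log2 difference 2.89, adjusted p 0.036 in edgeR), and the median of fatty acid synthesis genes went from 0.01 to 2.04. The kidney marker Slc34a1 was at 2097 CPM in replicate 4, below all 7 libraries.

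**Figure D5:**
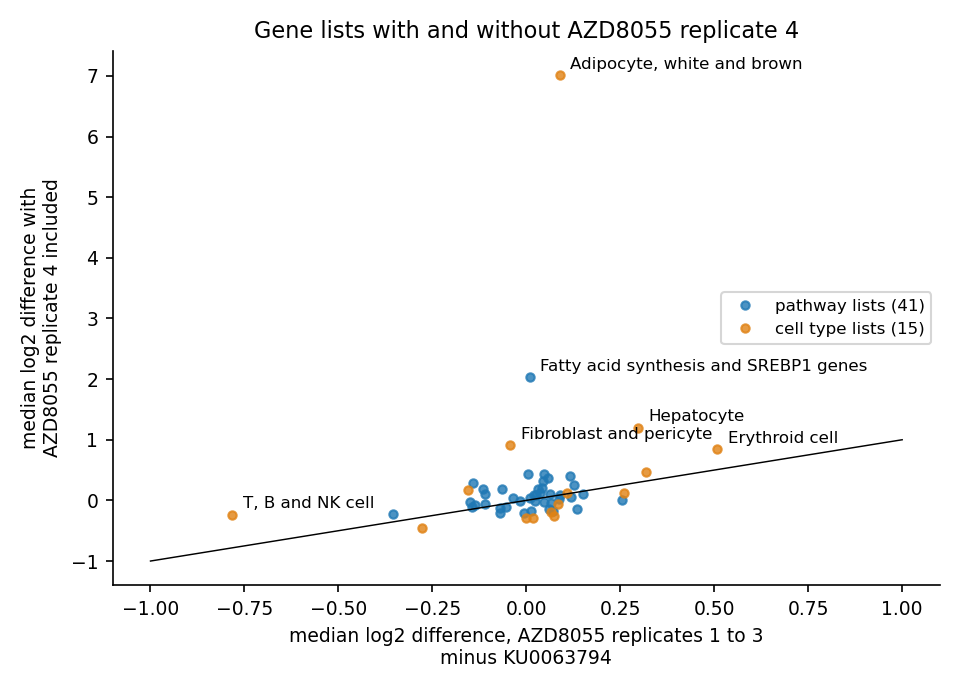
Median log2 difference of each gene list with at least 5 tested genes, with AZD8055 replicate 4 included (vertical axis) against without it (horizontal axis); the line marks equal values. The fat-cell list moves to 7.01 and fatty acid synthesis to 2.04, while most lists stay near 0 on both axes.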

How the data were processed

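Kidney RNA was sequenced by CEL-seq, a barcoded 3'-end method for polyadenylated RNA. The values are raw counts per gene as deposited by the authors, for 43629 Ensembl genes and 42 libraries. Tools named in the submitters' processing notes are STAR 2.5.2b, featureCounts 1.5, Trimmomatic 0.32 and bcl2fastq 1.8.4, with the mm10 genome. Not given in the sources used here are the annotation release, strandedness and any use of molecular identifiers, so counts may include amplified copies. Symbols and coordinates are from GENCODE M21 (GRCm38), which matched 42548 genes. All columns were matched to samples by name, and 0 were left unused.

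Counts were filtered (filterByExpr), TMM-scaled and fitted with edgeR's quasi-likelihood test (edgeR 4.0.16, R 4.3.3) on 29 kidney libraries, all groups without AZD8055 replicate 4, with Benjamini-Hochberg adjustment over 12227 genes and a threshold of 0.05. The standard error was the log2 difference divided by the root of F, and the 95% interval used the t quantile. P-values measure the spread between these libraries; the labels call them replicates and do not say more of their source. Levels are TMM-normalised CPM. The 13 satellite-like models share 5% or more of 24-base words with Gm10800.

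The members, the 61 gene lists and the rule for named genes were chosen with earlier results of these data known. The rule took up to 12 called genes in each direction by size. Since none passed, it took the 10 smallest p in each direction with non-overlapping groups and a mean of 5 CPM or more, and 26 genes given whatever their values, of which Apoh and Hpd were also among the former. Satellite-like models and genes with no symbol were counted and not named. Other genes named were picked after their values were seen, and some genes that the rule took are left out of the text. Lists are described by counts and medians with no test, and the script was tested on simulated data.

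Alternatives were DESeq2 1.42.0, RLE scaling, no filter, limma 3.58.1 voom with sample weights, a replicate block, the 2 groups alone, AZD8055 replicate 4 included, the satellite share as a covariate, libraries with at least 5% satellite counts or satellite models left out, and each library left out. Added after seeing the data were a covariate for column position (27 or earlier against later), the 2 groups alone without KU0063794 replicate 1, and a standard error from the fitted weights.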

Additional observations from a re-analysis of the deposited data

Results flagged for a closer look

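Of 92 groups of 4 to 6 libraries checked for 1 library far from the others, 5 had one, and chance gives about 1 in 20. In KU0063794 the satellite-like share was 8.02% in replicate 1 and at most 0.1998% in the other 3. Hapln1 was 0.465 CPM in KU0063794 replicate 2, a single read, and 2.04 to 2.27 CPM in the others. Rictor was 20.5 CPM in KU0063794 replicate 1 and 13.03 to 14.3 CPM in the others, and Khdc4 was 43.5 CPM in replicate 3 and 34.4 to 35.3 CPM in the others. Defb29 was 96.6 CPM in 1 control, the lowest of 6, whose highest was 186 CPM.

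AZD8055 replicate 4, which the comparison leaves out, carried a fat-cell signal above the controls: Ucp1 was 4140 CPM, against 1.47 to 7.68 CPM in the 6 controls, and Fabp4 was 17334 CPM, against 44.0 to 95.5 CPM.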

How the results depend on the processing

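The number of genes called was 0 in edgeR with RLE scaling, the satellite covariate, satellite models removed, the column position covariate and the standard error from fitted weights, and in limma voom. It was also 0 without the libraries with at least 5% satellite counts, which leaves 1 AZD8055 library against 3, assumed to vary like the other groups. It was 80 without the low-count filter (59 higher, 21 lower), in a fit with 717000 total degrees of freedom against 29.4 that sets the spread of each gene almost wholly from the trend, 74 with AZD8055 replicate 4, 1 with DESeq2 (Ly6a), 1 with the 2 groups alone (Hsd11b1) and 2 with the 2 groups alone without KU0063794 replicate 1. With 1 library left out it ranged from 0 to 0. The number of intervals within 2-fold was 15315 without the filter and 4860 without the high-satellite libraries, ranged from 6397 to 7270 with 1 library left out, and was 7448 with the standard error from fitted weights. Of 800 recomputed differences of 40 named genes, 771 kept their side of the threshold or moved by less than 1 SD between libraries, 12 became called and 17 moved further, among them Deptor, whose sign turned with AZD8055 replicate 4. Of 1100 recomputed list medians 104 moved by more than 1 SD. Among these, 28 moved with AZD8055 replicate 4, 17 with the column position covariate and 12 without the high-satellite libraries. Of the 17 gene differences that moved further, 7 did so without the high-satellite libraries, 5 with the column position covariate and 5 with AZD8055 replicate 4. The cause was not tested. With the replicate number as a block 0 genes were called, with 434 at an unadjusted p under 0.05; same-numbered libraries deviated with correlations of 0.256, -0.139 and 0.248, so the numbers were not taken as pairs. Depth limits genes under 5 CPM, where the median standard error was 0.759.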
